A study of Homo sapiens with 3 samples.

Results

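Interferon-stimulated and RNA sensing genes were followed in a gastric cancer cell line in which the transcription factor gene FOXP4 was knocked down. The 46 genes were taken by symbol from a deposited TPM table of 31907 genes, with RIG-I under its older symbol DDX58. All 46 symbols were found. They comprise 10 sensors of foreign RNA with their adaptor, 5 transcription factors and 31 effectors. Averaged over the libraries, 40 of them reached 1 TPM, namely all 10 sensors, all 5 transcription factors and 25 effectors. TPM is a share of the library corrected for transcript length, so a gene's value depends also on the other transcripts in the library.

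The study holds 3 RNA-seq libraries of NCI-N87 cells, a human gastric carcinoma line long in culture. The groups are cells given siRNA1 against FOXP4, labelled as knockdown (n = 1), cells given siRNA2 against FOXP4, also labelled as knockdown (n = 1), and cells given a scrambled siRNA, labelled as wild type (n = 1). All of them were transfected with Lipofectamine 2000. The pair of FOXP4 siRNAs are different reagents, and the labels do not say whether the libraries came from separate cultures, so a p-value here reflects only how these libraries scatter.

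Cells detect viral RNA inside the cytoplasm with the helicases RIG-I and MDA5 and in endosomes with TLR3, and these pass the signal through adaptors such as MAVS to the kinases that activate IRF3 and IRF7. Those factors switch on interferon genes, and secreted interferon acts on receptors that activate STAT2, which binds DNA together with IRF9. The target genes restrict entry, translation and replication of viruses, and many of them encode the sensors themselves. Epithelial cells, including those of the stomach, carry this pathway, and double-stranded RNA is a ligand of several of the sensors.

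FOXP4 itself, a forkhead factor (ENSG00000137166.14, chromosome 6, 41546426 to 41602384, plus strand), measured 51.6 TPM with siRNA1, 36.7 TPM with siRNA2 and 93.9 TPM with scrambled siRNA. It thus stood at 55.0% of the scrambled level with siRNA1 and at 39.0% with siRNA2. On the log2(TPM + 1) scale its differences from scrambled were -0.85 with siRNA1 and -1.33 with siRNA2, a mean of -1.09 ± 0.34 (SD, n = 2) with a limma adjusted p of 0.9999, and -0.20 and -1.02 once a trend of folds with GC content was removed. Estimated depth was 18100000 reads with siRNA1, 18700000 with siRNA2 and 17900000 with scrambled siRNA, and mitochondrial genes took 10.4%, 1.92% and 6.37% of TPM in the same order. The line's 7 epithelial markers summed to 3269 TPM with siRNA1, 4855 TPM with siRNA2 and 4562 TPM with scrambled siRNA, and all 7 passed the filter. Most of the sum came from KRT8, KRT19 and EPCAM, at 1733, 1343 and 1135.5 TPM with scrambled siRNA. CDH1 was low, at 5.86 TPM with siRNA1, 11.6 TPM with siRNA2 and 4.16 TPM with scrambled siRNA, and ERBB2 stood at 58.9, 63.9 and 89.8 TPM. Of 9 blood cell markers, 7 were in the table and 4, CD68, CD14, NKG7 and CLEC4C, were listed at 0 in every library, while PTPRC, the pan-leukocyte marker, reached 0.0516 TPM. The 7 summed to 3.66 TPM with siRNA1, 4.61 TPM with siRNA2 and 4.75 TPM with scrambled siRNA, while 5 of 6 stromal markers summed to 7.06, 22.6 and 13.9 TPM in the same order, nearly all of it COL1A1, with COL1A2 and DCN listed at 0. In bulk RNA, fewer cells with a transcript and less of it per cell cannot be told apart.

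Together the 46 genes took 0.262% of TPM with siRNA1, 0.293% with siRNA2 and 0.362% with scrambled siRNA. Most of that came from 3 effectors, IFITM3, IFI6 and ISG15, which made up 58.1% of the summed level with siRNA1, 63.2% with siRNA2 and 69.2% with scrambled siRNA. The sensors summed to 306 TPM with siRNA1, 196 TPM with siRNA2 and 247 TPM with scrambled siRNA, the transcription factors to 172, 294 and 212 TPM in the same order, and the effectors to 2139, 2440 and 3151 TPM. By these sums the sensors were highest with siRNA1, the transcription factors with siRNA2 and the effectors with the scrambled siRNA. A few abundant genes set the order of the effectors. Without IFITM3, IFI6, ISG15 and IFITM1 the effectors summed to 504 TPM with siRNA1, 416 TPM with siRNA2 and 437 TPM with scrambled siRNA. Without IRF3 the transcription factors summed to 76.9 TPM with siRNA1, 96.6 TPM with siRNA2 and 95.2 TPM with scrambled siRNA. Their order was thus kept, with siRNA2 and scrambled siRNA close together. Levels were broad within each role. In the scrambled library 7 of the 46 genes lay under 1 TPM, 13 between 1 and 10, 21 between 10 and 100 and 5 above 100.

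**Figure D1:**
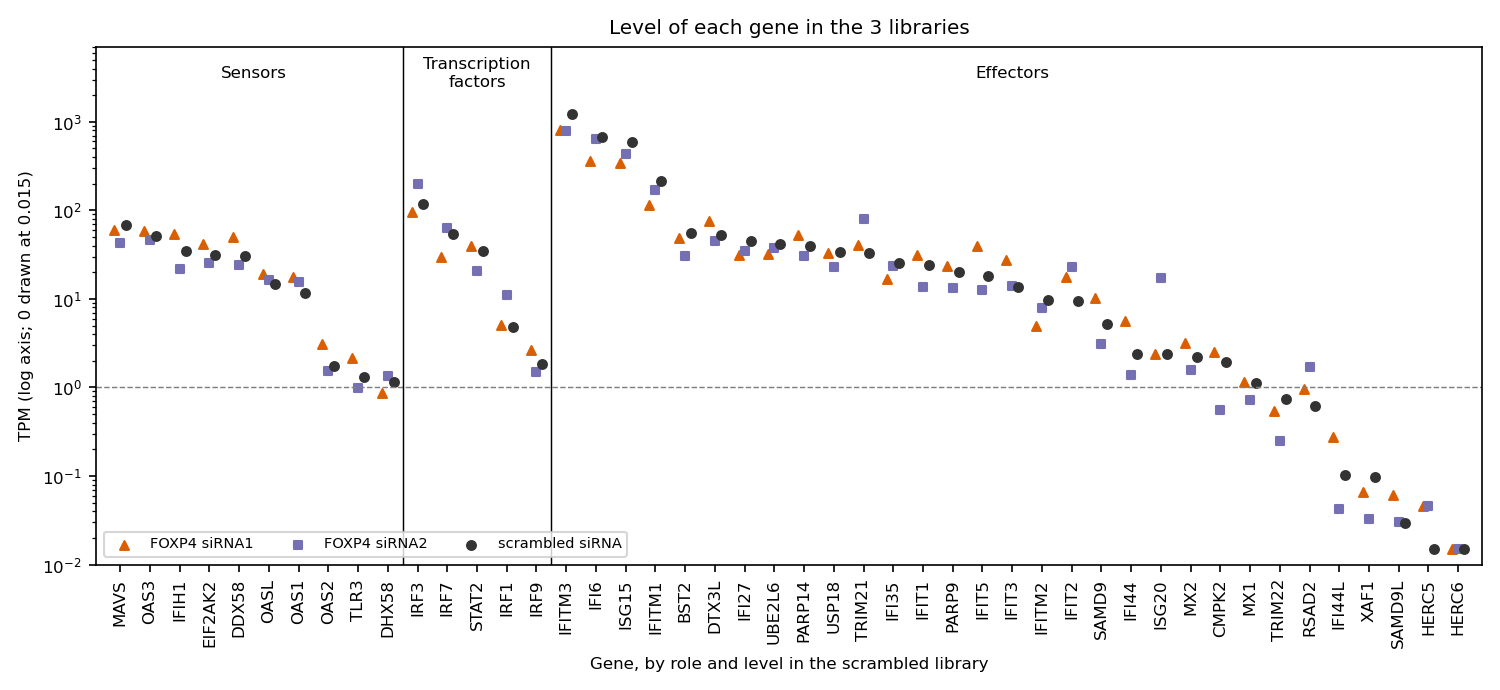
Each point is the level of a gene in TPM on a log axis, in the siRNA1 (triangles), siRNA2 (squares) and scrambled (circles) libraries, with 1 library a condition and genes ordered by role and by scrambled level. The sensors span from about 1 TPM to 68.8 TPM (MAVS) in the scrambled library, and the effectors reach 1234 TPM (IFITM3), while 6 effectors on the right fall under a mean of 1 TPM.

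No gene of the 46 passed the test of knockdown against scrambled siRNA. The test was limma on log2(TPM + 1) with Benjamini-Hochberg adjustment over the 14429 genes averaging 1 TPM or more, and it called 0.00% of them higher and 0.00% lower at an adjusted p of 0.05. The smallest adjusted p over all genes was 0.9999. At an unadjusted p under 0.05 stood 428 genes and none of the 40, among which IFIT2 had the lowest p from limma, 0.12. Restricted to the 9129 genes averaging 10 TPM or more, limma called 1.02% of them in either direction, and no member. The prior degrees of freedom of that fit were infinite, so each gene's variance was the value of the trend at its level. With 1 residual degree of freedom the test has little reach, so each gene is given below by its level in each library and by its difference in log2(TPM + 1) from the scrambled library, called its fold. Both folds of a gene share the scrambled library, so their having the same sign is no independent repeat. The pseudocount of 1 TPM understates the folds of low genes.

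Size alone was also counted. At least 2-fold from scrambled siRNA in the same direction with both siRNAs were 2.52% of all genes tested on the higher side and 2.38% on the lower side, against 0 of the 40 on either side. With siRNA1 alone, 5.27% of all genes were 2-fold higher and 6.00% were 2-fold lower, against 1 member higher, IFIT5, and none lower. With siRNA2 alone, 6.88% were 2-fold higher and 13.2% were 2-fold lower, against 4 members higher, ISG20, TRIM21, IFIT2 and IRF1, and none lower. These counts depend on the pseudocount, since several of the genes are low. With a pseudocount of 0.1 TPM, 3 members were 2-fold higher with siRNA1, IFIT3 (1.02) and IFI44 (1.19) with IFIT5, and none lower, against 7.69% of all genes higher and 8.16% lower. With siRNA2, 5 were then 2-fold higher, RSAD2 (1.33) with the 4 named, and 1 was lower, CMPK2 (-1.64), against 8.11% of all genes higher and 17.5% lower. With a pseudocount of 5 TPM, 0 members were 2-fold higher with siRNA1 and 2 with siRNA2, and the share of all genes was not counted at that setting.

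DDX58 and IFIH1, which encode the main cytoplasmic helicases, were highest with siRNA1. DDX58, the RIG-I gene (ENSG00000107201.9, chromosome 9, 32455705 to 32526324, minus strand, GRCh38), measured 50.5 TPM with siRNA1, 24.2 TPM with siRNA2 and 30.4 TPM with scrambled siRNA. Its folds were 0.71 with siRNA1 and -0.32 with siRNA2, and the estimated reads behind the levels were 992, 484 and 618. IFIH1, which encodes MDA5, the sensor of long double-stranded RNA, measured 53.4 TPM with siRNA1, 22.0 TPM with siRNA2 and 34.4 TPM with scrambled siRNA, folds of 0.62 with siRNA1 and -0.62 with siRNA2. For both genes the scrambled library lay between the knockdown libraries. With the GC trend removed the folds with siRNA1 and siRNA2 were 0.32 and -0.17 for DDX58 and 0.34 and -0.43 for IFIH1. With median-of-ratios scaling the siRNA2 fold of DDX58 was -0.05. The third helicase of the family, DHX58 or LGP2, which modulates the other two, was near the filter at 0.857 TPM with siRNA1, 1.35 TPM with siRNA2 and 1.16 TPM with scrambled siRNA, an estimated 14.9, 23.8 and 20.8 reads. Its order was the opposite one, lowest with siRNA1, by a span of few reads, and its siRNA1 fold of -0.22 turned to 0.18 once the trend of folds with GC content, described further on, was removed.

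TLR3 and EIF2AK2 followed the order of DDX58. TLR3, the endosomal receptor, measured 2.15 TPM with siRNA1, 0.995 TPM with siRNA2 and 1.33 TPM with scrambled siRNA, from 65.3, 30.7 and 41.7 estimated reads. EIF2AK2, or PKR, the kinase that halts translation when bound by double-stranded RNA, measured 41.8 TPM with siRNA1, 25.3 TPM with siRNA2 and 31.7 TPM with scrambled siRNA, folds of 0.39 with siRNA1 and -0.32 with siRNA2. MAVS, the mitochondrial adaptor of the helicases and the highest of the sensor group in the scrambled library, was below it with both siRNAs, at 60.0 TPM with siRNA1, 42.5 TPM with siRNA2 and 68.8 TPM with scrambled siRNA. MAVS was the only gene of the 10 lower than scrambled with both as tested, and TLR3 and EIF2AK2 joined it after the GC trend was removed, at siRNA1 folds of -0.05 and -0.07.

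The 2'-5'-oligoadenylate synthetases, which sense double-stranded RNA and make the activator of the nuclease RNase L, were all higher than scrambled with siRNA1. OAS1 measured 17.5 TPM with siRNA1, 15.7 TPM with siRNA2 and 11.7 TPM with scrambled siRNA, folds of 0.54 with siRNA1 and 0.39 with siRNA2. OASL, a family member without synthetase activity that enhances RIG-I signalling, measured 19.1 TPM with siRNA1, 16.5 TPM with siRNA2 and 14.6 TPM with scrambled siRNA, folds of 0.37 and 0.17. OAS1 and OASL were the sensors higher than scrambled with both siRNAs as tested and neither was 2-fold away, and after the GC trend was removed OAS2, OAS3 and DHX58 were so too. OAS3 measured 57.8 TPM with siRNA1, 46.4 TPM with siRNA2 and 50.9 TPM with scrambled siRNA, and OAS2 measured 3.08, 1.52 and 1.76 TPM in the same order of libraries. The siRNA2 folds of OAS2 (-0.14) and OAS3 (-0.13) were below 0 as tested and above 0 after the trend with GC content was removed or with median-of-ratios scaling, so their direction with siRNA2 depends on the scaling. With median-of-ratios scaling the median siRNA2 fold over all genes was 0.00, against -0.24 as tested.

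Over the 10 sensors the median fold was 0.41 with siRNA1 and -0.18 with siRNA2, against 0.03 and -0.24 over all genes tested. Above the scrambled level lay 8 of the 10 with siRNA1 and 3 of the 10 with siRNA2, against 51.8% and 34.6% of all genes tested.

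Of the transcription factors, IRF1, IRF3 and IRF7 were highest with siRNA2, and STAT2 and IRF9 were highest with siRNA1. IRF3, the latent factor that switches on interferon genes first, measured 95.3 TPM with siRNA1, 197 TPM with siRNA2 and 117 TPM with scrambled siRNA. Its fold with siRNA2 was 0.75, and its fold with siRNA1, -0.29, turned to 0.15 once the GC trend was removed. IRF7, which amplifies the response and is itself induced by interferon, measured 29.7 TPM with siRNA1, 63.6 TPM with siRNA2 and 53.7 TPM with scrambled siRNA. Its fold with siRNA1 was -0.83 as tested and 0.06 with the GC trend removed, and with siRNA2 it was 0.24. IRF7 had the highest GC content of the 40, 66.8% of its longest transcript.

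IRF1 (ENSG00000125347.13, chromosome 5, 132481609 to 132490798, minus strand) is a factor that sustains antiviral and interferon-gamma target genes. As tested it was the only transcription factor 2-fold from scrambled, and only with siRNA2. It measured 5.10 TPM with siRNA1, 10.9 TPM with siRNA2 and 4.79 TPM with scrambled siRNA, folds of 0.07 and 1.04. Its siRNA2 fold was 0.70 with a pseudocount of 5 TPM and 0.99 without mitochondrial genes, under 2-fold in both settings. The siRNA2 fold of IRF3 passed 2-fold with the GC trend removed (1.06) and with median-of-ratios scaling (1.03). STAT2 and IRF9 belong to the complex that carries the type I and type III interferon signal to DNA. STAT2 measured 39.5 TPM with siRNA1, 20.6 TPM with siRNA2 and 34.9 TPM with scrambled siRNA, folds of 0.18 and -0.73. IRF9 was low at 2.66 TPM with siRNA1, 1.48 TPM with siRNA2 and 1.85 TPM with scrambled siRNA, and 48.4% of its exon bases also lie in the exons of AL136295.5 on the same strand, so reads from these genes cannot be told apart there. The siRNA2 fold of IRF9 was -0.20 as tested and 0.11 with the GC trend removed. Exons on the opposite strand cover 22.0% of IRF1 (C5orf56) and 19.4% of IRF3 (BCL2L12), and no source used here states that strand was used in counting. The median fold of the 5 was 0.07 with siRNA1 and 0.24 with siRNA2. Above scrambled lay 3 of 5 with each, against 51.8% of all genes tested with siRNA1 and 34.6% with siRNA2. With so few genes the median turns on the filter: among the transcription factors averaging 10 TPM or more it was -0.29 with siRNA1.

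The effectors include many classical targets of the interferon-stimulated response element, a DNA motif bound by the complex of STAT2 and IRF9 and by other IRF proteins. The core searched was GAAA followed after 2 bases by a second GAAA, on either strand. The start-site windows below are shown for 4 genes described next: IFIT5, the only member 2-fold higher with siRNA1, with 3 matches; ISG15, among the most abundant, with a pair of overlapping matches; ISG20, the member furthest from scrambled with siRNA2, with 1 match; and DTX3L, whose 1 match is shared with the divergent neighbour PARP9. They run from 250 bases before to 50 after the start, from RefSeq on GRCh38.p14, all on the plus strand, with capitals marking the matches.
IFIT5 (chr10:89414318-89414617): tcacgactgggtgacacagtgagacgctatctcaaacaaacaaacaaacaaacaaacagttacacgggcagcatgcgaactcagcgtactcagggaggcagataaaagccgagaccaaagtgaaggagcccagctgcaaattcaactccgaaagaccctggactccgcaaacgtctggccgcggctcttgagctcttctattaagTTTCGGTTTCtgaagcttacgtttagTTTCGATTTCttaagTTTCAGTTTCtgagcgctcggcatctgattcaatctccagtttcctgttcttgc
ISG15 (chr1:1013247-1013546): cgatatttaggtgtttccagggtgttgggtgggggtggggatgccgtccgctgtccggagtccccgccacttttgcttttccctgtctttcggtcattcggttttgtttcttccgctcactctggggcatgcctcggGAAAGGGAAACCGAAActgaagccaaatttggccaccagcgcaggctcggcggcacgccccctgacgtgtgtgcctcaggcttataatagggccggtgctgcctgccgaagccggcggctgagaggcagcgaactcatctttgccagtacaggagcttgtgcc
ISG20 (chr15:88638766-88639065): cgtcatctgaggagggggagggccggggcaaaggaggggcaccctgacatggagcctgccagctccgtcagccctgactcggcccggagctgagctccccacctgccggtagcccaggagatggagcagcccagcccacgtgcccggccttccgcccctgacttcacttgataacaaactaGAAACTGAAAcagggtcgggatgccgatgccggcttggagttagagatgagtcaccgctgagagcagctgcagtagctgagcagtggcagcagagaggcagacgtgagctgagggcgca
DTX3L (chr3:122564088-122564387): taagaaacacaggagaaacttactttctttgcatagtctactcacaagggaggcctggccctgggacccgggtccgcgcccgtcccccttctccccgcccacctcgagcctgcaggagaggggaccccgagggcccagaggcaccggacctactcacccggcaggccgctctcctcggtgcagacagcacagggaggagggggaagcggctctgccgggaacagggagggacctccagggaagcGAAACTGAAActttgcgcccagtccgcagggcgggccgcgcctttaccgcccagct
Counted in bases from the start, the matches begin at -45, -19 and -4 in IFIT5, at -113 and -107 in ISG15, at -69 in ISG20 and at -6 in DTX3L. The same 10 bases of the DTX3L window, chr3:122564332-122564341, begin at -41 from the start of PARP9, which is read from the other strand.

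The IFIT genes lie side by side on chromosome 10 and encode proteins that bind viral RNA ends and block its translation. IFIT5 (ENSG00000152778.8, 89414586 to 89421001, plus strand) measured 39.8 TPM with siRNA1, 12.7 TPM with siRNA2 and 18.1 TPM with scrambled siRNA. Its folds were 1.09 with siRNA1 and -0.48 with siRNA2, and with the GC trend removed 0.60 and -0.39, which takes it under 2-fold. IFIT1 measured 31.3 TPM with siRNA1, 13.6 TPM with siRNA2 and 24.2 TPM with scrambled siRNA, folds of 0.36 and -0.79. IFIT1 and IFIT5 thus lay on opposite sides of scrambled with the siRNAs. IFIT3, the partner that stabilises IFIT1, measured 27.6 TPM with siRNA1, 14.1 TPM with siRNA2 and 13.5 TPM with scrambled siRNA, folds of 0.98 and 0.05, of which the siRNA2 fold changed sign when mitochondrial genes were left out of the total.

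IFIT2 was higher than scrambled with both siRNAs, unlike IFIT1 and IFIT5. The gene (ENSG00000119922.9, chromosome 10, 89283694 to 89309276, plus strand), whose product restricts viral translation and can promote apoptosis, measured 17.5 TPM with siRNA1, 23.0 TPM with siRNA2 and 9.50 TPM with scrambled siRNA, from 324, 433 and 182 estimated reads. Its folds were 0.82 with siRNA1 and 1.19 with siRNA2, a mean of 1.01 ± 0.27 (SD, n = 2 siRNAs), with a limma adjusted p of 0.9999. With the GC trend removed they were 0.52 and 1.38. Neighbouring genes of the same cluster therefore held 3 different orders of the libraries.

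The membrane-bound restriction factors were lower than scrambled with both siRNAs in all 4 cases as tested, and after GC removal in IFITM1 and IFITM3 but not in IFITM2 with siRNA2 or BST2 with siRNA1. IFITM3 (ENSG00000142089.15, chromosome 11, 319669 to 327537, minus strand), which blocks virus entry from endosomes and is the most abundant of the 46, measured 817 TPM with siRNA1, 778 TPM with siRNA2 and 1234 TPM with scrambled siRNA. Its folds, -0.59 with siRNA1 and -0.66 with siRNA2, average -0.63 ± 0.05 (SD, n = 2), with a limma adjusted p of 0.9999. IFITM1, found mainly at the cell surface, measured 116 TPM with siRNA1, 171 TPM with siRNA2 and 216 TPM with scrambled siRNA, folds of -0.89 and -0.34. The third gene of the cluster, IFITM2, measured 4.98 TPM with siRNA1, 7.97 TPM with siRNA2 and 9.78 TPM with scrambled siRNA, folds of -0.85 and -0.26, the siRNA2 fold becoming 0.04 with the GC trend removed. Of the 50-base words, 32.0% of IFITM1, 34.1% of IFITM2 and 17.4% of IFITM3 occur in other genes. In the annotation 32.5% of the exon bases of IFITM1 lie in exons of IFITM2 on the same strand. The split of reads among the IFITM genes is therefore uncertain. Exons of AC136475.5 on the opposite strand cover 21.3% of IFITM3. BST2, or tetherin, which holds budding virions at the cell surface, measured 48.3 TPM with siRNA1, 30.5 TPM with siRNA2 and 54.9 TPM with scrambled siRNA, and its siRNA1 fold of -0.18 became 0.18 with the GC trend removed. The median fold of the 4 genes was -0.72 with siRNA1 and -0.50 with siRNA2.

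ISG15 and its conjugation and removal enzymes were at or below the scrambled level as tested, with the changes of sign named here for UBE2L6 and USP18. ISG15 (ENSG00000187608.9, chromosome 1, 1001138 to 1014540, plus strand), a ubiquitin-like modifier that is also secreted, measured 339 TPM with siRNA1, 428 TPM with siRNA2 and 598 TPM with scrambled siRNA. Its folds, -0.82 with siRNA1 and -0.48 with siRNA2, average -0.65 ± 0.24 (SD, n = 2; limma adjusted p 0.9999), and they were -0.13 and -0.16 with the GC trend removed from a transcript of 63.4% GC. UBE2L6, the E2 enzyme of ISG15 conjugation, measured 32.2 TPM with siRNA1, 37.8 TPM with siRNA2 and 41.6 TPM with scrambled siRNA, with a siRNA2 fold that changed sign after GC removal and with median-of-ratios scaling. USP18, which removes ISG15 and damps receptor signalling, measured 32.9 TPM with siRNA1, 23.0 TPM with siRNA2 and 33.4 TPM with scrambled siRNA. Its siRNA1 fold of -0.02 changed sign after GC removal and without mitochondrial genes, and 23.4% of its 50-base words occur in other genes, mostly its near-copy USP41. HERC5, the E3 ligase of ISG15 conjugation, and its paralog HERC6 were all but unread: HERC5 reached 0.0461 TPM, about 1 read, and HERC6 was listed at 0 in all 3 libraries.

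The genes of the IFI group did not share an order of libraries. IFI6, a small membrane protein that restricts flavivirus replication and is the second most abundant in the scrambled library, measured 363 TPM with siRNA1, 646 TPM with siRNA2 and 665 TPM with scrambled siRNA. Its siRNA1 fold was -0.87, and its siRNA2 fold, -0.04, changed sign after GC removal and with median-of-ratios scaling. IFI27, a small mitochondrial protein, measured 31.3 TPM with siRNA1, 35.1 TPM with siRNA2 and 44.8 TPM with scrambled siRNA. IFI35, a partner of NMI, measured 16.7 TPM with siRNA1, 23.7 TPM with siRNA2 and 25.5 TPM with scrambled siRNA, its siRNA2 fold of -0.10 changing sign under those same scalings. All 3 were lowest with siRNA1. IFI44, a cytoplasmic protein, was instead highest with siRNA1, at 5.60 TPM with siRNA1, 1.38 TPM with siRNA2 and 2.40 TPM with scrambled siRNA, from 51.5, 12.9 and 22.8 estimated reads. Its neighbour and paralog IFI44L reached 0.279 TPM, an estimated 12.9 reads at most.

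The antiviral ADP-ribosyltransferase group was highest with siRNA1 and lowest with siRNA2. DTX3L, a ubiquitin ligase that forms a complex with PARP9, measured 76.4 TPM with siRNA1, 45.5 TPM with siRNA2 and 52.5 TPM with scrambled siRNA. PARP9, its divergent neighbour shown above, measured 23.6 TPM with siRNA1, 13.1 TPM with siRNA2 and 20.4 TPM with scrambled siRNA. PARP14, a larger member of the family, measured 53.3 TPM with siRNA1, 30.2 TPM with siRNA2 and 39.5 TPM with scrambled siRNA. The folds of the 3 with siRNA1 ran from 0.20 (PARP9) to 0.53 (DTX3L) and those with siRNA2 from -0.60 (PARP9) to -0.20 (DTX3L), while the siRNA1 fold of PARP9 turned to -0.07 after GC removal and the siRNA2 fold of DTX3L changed sign with median-of-ratios scaling. SAMD9, an antiviral factor that acts against poxviruses, had the same order at 10.2 TPM with siRNA1, 3.12 TPM with siRNA2 and 5.14 TPM with scrambled siRNA, folds of 0.87 and -0.58. Its paralog SAMD9L reached only 0.0615 TPM, an estimated 2 reads.

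The dynamin-like GTPases, often used as markers of an interferon response, were low. MX1 measured 1.15 TPM with siRNA1, 0.726 TPM with siRNA2 and 1.13 TPM with scrambled siRNA, and MX2 measured 3.18, 1.55 and 2.18 TPM in the same order. Of the genes that act on nucleotides and nucleic acids, ISG20 stood furthest from the scrambled library of all 40. ISG20, a 3'-5' exonuclease that degrades single-stranded RNA (ENSG00000172183.14, chromosome 15, 88636153 to 88656483, plus strand), measured 2.42 TPM with siRNA1, 17.1 TPM with siRNA2 and 2.37 TPM with scrambled siRNA. The estimated reads were 80.2 with siRNA1, 577 with siRNA2 and 81.4 with scrambled siRNA, so the siRNA1 level lay near the scrambled one while the siRNA2 level stood apart. Its folds of 0.02 and 2.42 average 1.22 ± 1.70 (SD, n = 2; limma adjusted p 0.9999), a spread larger than the mean.

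RSAD2, or viperin, which makes a chain-terminating nucleotide, and CMPK2, its chromosomal neighbour that supplies the substrate, differed in order. RSAD2 measured 0.954 TPM with siRNA1, 1.70 TPM with siRNA2 and 0.615 TPM with scrambled siRNA, from 20.8, 37.7 and 13.9 estimated reads, and its siRNA1 fold of 0.27 turned to -0.07 after GC removal. CMPK2 measured 2.50 TPM with siRNA1, 0.552 TPM with siRNA2 and 1.93 TPM with scrambled siRNA, from 48.5, 10.9 and 38.7 estimated reads. TRIM21 (ENSG00000132109.9, chromosome 11, 4384897 to 4393696, minus strand), a cytosolic antibody receptor and ubiquitin ligase, measured 40.7 TPM with siRNA1, 79.2 TPM with siRNA2 and 32.9 TPM with scrambled siRNA, folds of 0.30 and 1.24. TRIM21, IFIT2, RSAD2 and IRF1 were thus all highest with siRNA2 and above scrambled with both, apart from the siRNA1 direction of RSAD2 named above. TRIM22, another antiviral TRIM protein, reached 0.741 TPM and XAF1, a pro-apoptotic protein, 0.0963 TPM, and both were under the filter. Over the 25 effectors that passed it, the median fold was 0.20 with siRNA1 and -0.34 with siRNA2. Of these 25, 15 lay above scrambled with siRNA1 and 5 with siRNA2, against 51.8% and 34.6% of all genes tested. Among the effectors averaging 10 TPM or more the siRNA1 median was -0.02.

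**Figure D2:**
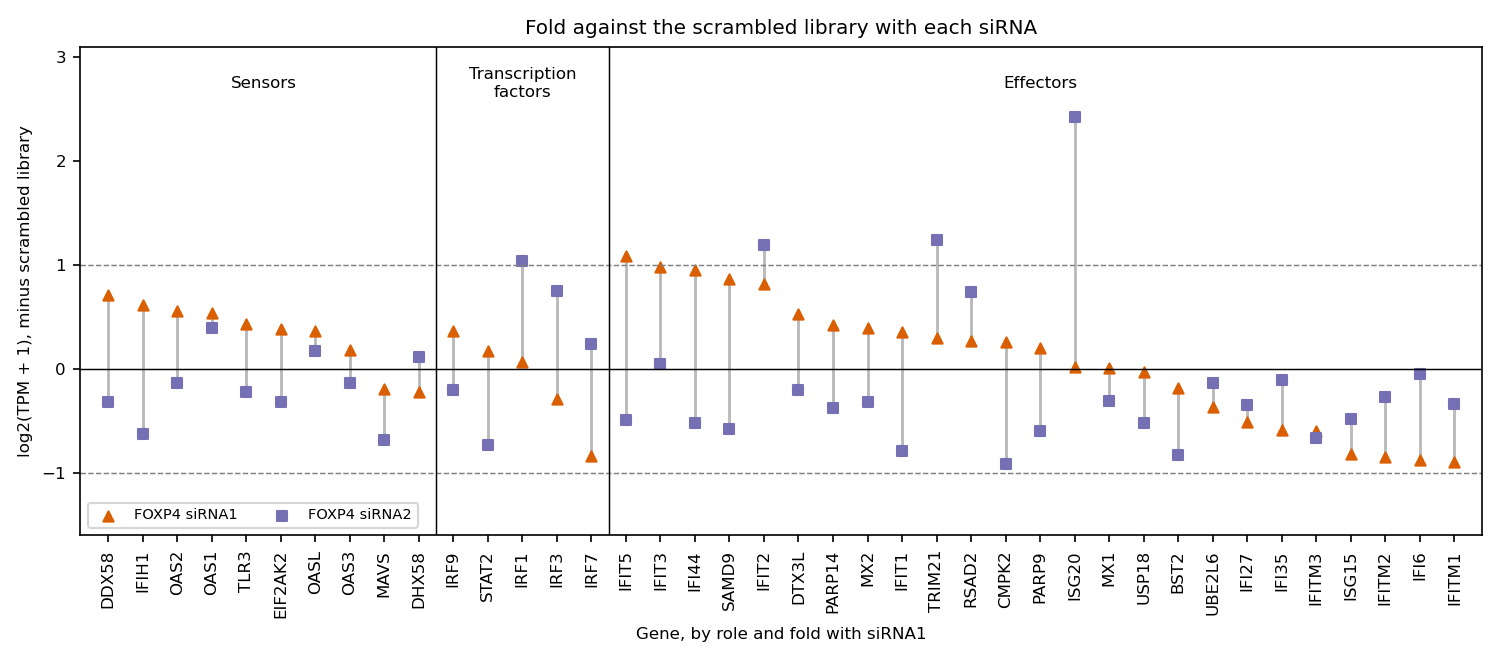
Each of the 40 genes averaging 1 TPM or more has its log2(TPM + 1) difference from the scrambled library with siRNA1 (triangle) and siRNA2 (square), joined by a line, and dashed lines mark 2-fold. Only IFIT5 crosses the upper line with siRNA1, while ISG20, TRIM21, IFIT2 and IRF1 cross it with siRNA2, and with this pseudocount of 1 no gene crosses the lower line.

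Set side by side as tested, the median fold of the sensors and of the effectors lay above 0 with siRNA1 and below 0 with siRNA2. That of the transcription factors lay above 0 with both. Among genes of at least 10 TPM the siRNA1 median was -0.02 for the effectors and -0.29 for the transcription factors. With median-of-ratios scaling the siRNA2 median of the sensors was -0.002. Of the 40 genes, 26 were above scrambled with siRNA1 (65.0%) and 11 with siRNA2 (27.5%), against 51.8% and 34.6% of all genes tested. The median fold of the 40 was 0.23 with siRNA1 and -0.29 with siRNA2. The siRNA2 count was 17, with a median of -0.05, with median-of-ratios scaling, where the median over all genes was 0.00. The share of all genes above scrambled was not counted at that scaling. With the GC trend removed the siRNA2 count was 18 (45.0%), with a median of -0.04, against 49.1% and -0.01 for all genes. Higher than scrambled with both siRNAs were 8 of the 40 (20.0%), against 24.5% of all genes. Lower with both were 11 of the 40 (27.5%), against 38.1% of all genes. Higher with siRNA1 and lower with siRNA2 were 18 of the 40 (45.0%), against 26.9% of all genes, and the reverse held for 3, DHX58, IRF3 and IRF7 (7.5%), against 9.81%. The largest class was therefore the one higher with siRNA1 and lower with siRNA2. No test was made of these shares.

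The difference between the siRNAs does not use the scrambled library. Between siRNA2 and siRNA1, 5.99% of all genes tested were at least 2-fold higher with siRNA2, and 3 members were, ISG20 (2.40), IRF7 (1.08) and IRF3 (1.04). At least 2-fold lower with siRNA2 were 12.8% of all genes and 7 members, IFIT5 (-1.58), IFI44 (-1.47), SAMD9 (-1.45), IFIH1 (-1.24), CMPK2 (-1.17), IFIT1 (-1.15) and DDX58 (-1.03), all as differences in log2(TPM + 1). Set against those shares of all genes, 3 of 40 and 7 of 40 differ from them by few genes. With 1 library of each siRNA this difference has no replicate check.

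GC content moved with the folds, more so for siRNA1. Across the 40 genes the Spearman correlation between the GC content of the longest GENCODE 29 transcript and the fold was -0.83 for siRNA1 and 0.24 for siRNA2, and across all genes tested with a GC value it was -0.61 and -0.10. Genes are not independent replicates and all share the same libraries, so these are descriptions. Of the 20 members at or under the median GC content of 50.7%, 19 were above scrambled with siRNA1, with a median fold of 0.49. Of the 20 members above it, 7 were, with a median of -0.21. The low-GC members include DDX58, IFIH1, the IFIT genes, SAMD9 and the PARP group, while ISG15, IRF3, IRF7 and the IFITM genes lie above the median.

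With the smooth trend of fold on GC content removed from all 12302 genes that have a value, the siRNA1 medians of the sensors and the effectors lay nearer 0 and that of the transcription factors further from it. The medians with siRNA1 and siRNA2 were then 0.33 and -0.01 for the sensors, 0.22 and 0.58 for the transcription factors and 0.11 and -0.08 for the effectors, against 0.00 and -0.01 over all genes. Of the 40, 13 (32.5%) were then higher with both siRNAs, against 33.9% of all genes, and 8 (20.0%) were lower with both, against 34.3%. Higher with siRNA1 and lower with siRNA2 were 14 (35.0%), against 16.5% of all genes, and the reverse held for 5 (12.5%), against 15.3%. Between siRNA2 and siRNA1, 3 members were still 2-fold higher with siRNA2, against 6.29% of all genes, and none was 2-fold lower, against 5.75%. Against scrambled, 5 members were 2-fold higher with siRNA2, IRF3 joining those 2-fold higher as tested, against 8.89% of all genes. The part of GC content in the folds was not tested beyond these values.

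Some genes kept their side of scrambled with and without the GC trend. OAS1 had folds of 0.49 with siRNA1 and 0.63 with siRNA2 after removal, OASL 0.47 and 0.44, and TRIM21 0.37 and 1.51. All 4 OAS family genes were then above scrambled with both siRNAs, against 2 of 4 as tested. ISG20 stood at 0.19 with siRNA1 and 2.71 with siRNA2, and IRF1 at 0.22 and 1.33. IFITM3 and ISG15 stayed below scrambled with both, IFITM3 at -0.25 and -0.35.

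**Figure D3:**
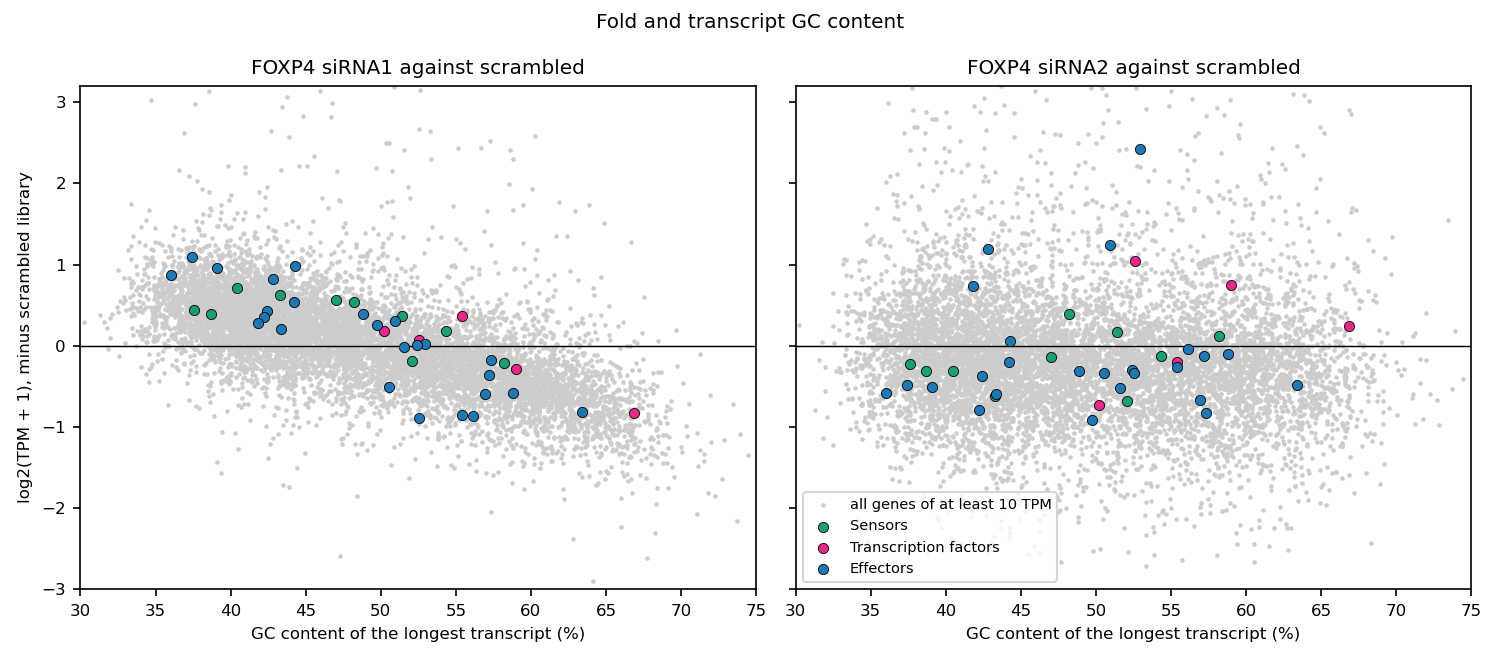
Each point is a gene, with the GC content of its longest transcript in percent on the horizontal axis and its log2(TPM + 1) difference from the scrambled library on the vertical axis, for siRNA1 on the left and siRNA2 on the right, and members coloured by role over all genes of at least 10 TPM in grey. With siRNA1 the members descend with GC content (Spearman -0.83 over 40), and with siRNA2 they do not (0.24), while ISG20 stands above the others.

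Start-site windows were held by the RefSeq table for 36 of the 46 genes. The interferon-stimulated response element core was found in 24 of the 36 (66.7%), against 4.38% of 27305 genes with such windows. By role it was found in 4 of 7 sensors, 0 of 3 transcription factors and 20 of 26 effectors. A gamma-activated site, a motif of interferon-gamma target genes searched as TTC, any 3 bases and GAA, which reads the same on both strands, was found in 10 of the 36 (27.8%), against 9.38% of all genes, and in 2 of the 3 transcription factors. A match is a description of letters and not evidence of binding, and absence from this window says nothing about the rest of the gene. The 22 genes with the element that passed the TPM filter had median folds of 0.29 with siRNA1 and -0.34 with siRNA2, and the 9 without it had 0.18 and -0.20. Their median GC contents were 44.2% and 52.1%. With the GC trend removed the medians were 0.13 and -0.14 with the element and 0.22 and 0.11 without it. The order with siRNA1 thus depends on that step, as does the siRNA2 sign of the genes without the element. The siRNA2 median of the genes with it stayed below 0. ISG20, IFIT5, ISG15 and DTX3L all carry the element in the windows printed above, and their folds with siRNA2 were -0.48 (ISG15), -0.48 (IFIT5), -0.20 (DTX3L) and 2.42 (ISG20).

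**Figure D4:**
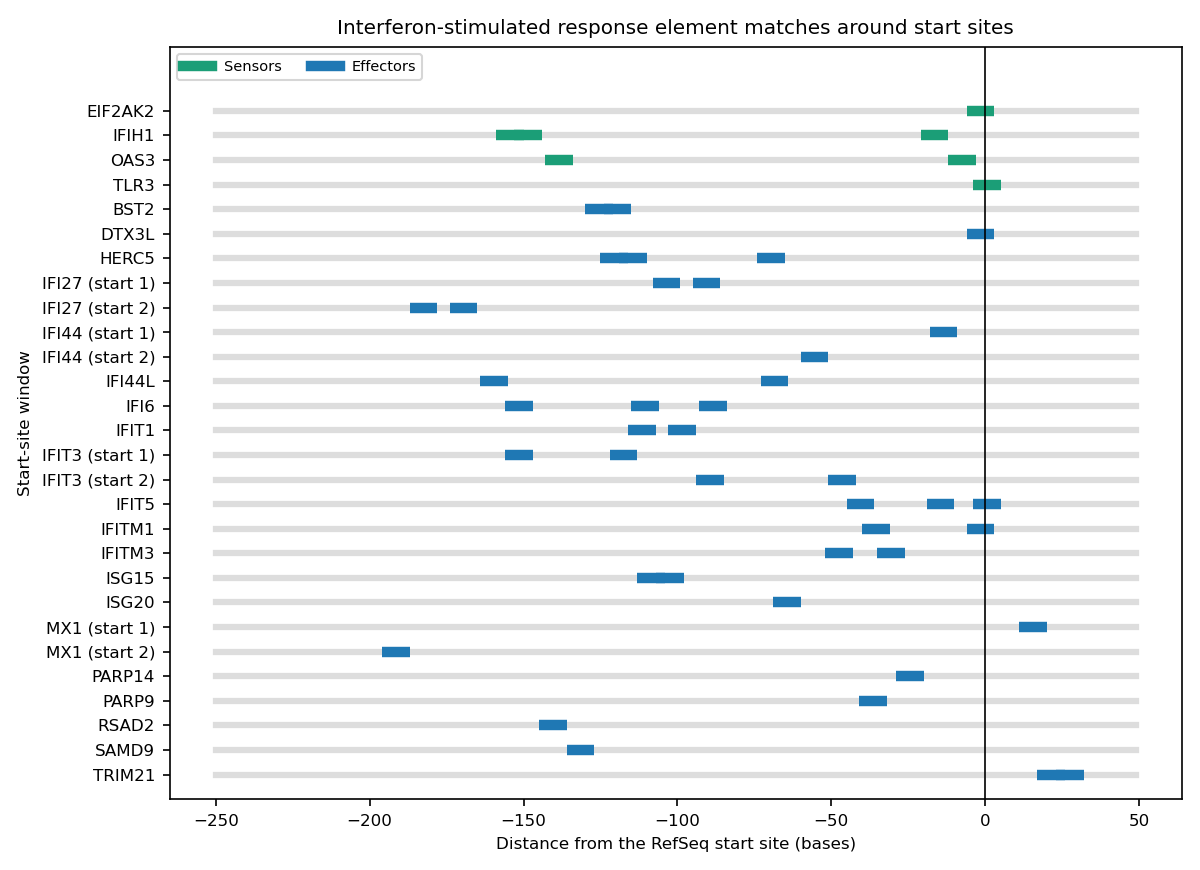
Grey bars are start-site windows that hold a match, with distance in bases from the RefSeq start on the horizontal axis, and coloured marks are matches to the interferon-stimulated response element core in sensors (green) and effectors (blue). IFIT5 has 3 matches and ISG15 an overlapping pair, and most matches lie before the start.

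The rest of the pathway was read from a list of 40 other genes, of which 37 were in the table and 33 passed the filter. None of the 33 passed limma's adjusted threshold. As tested none was 2-fold from scrambled with both siRNAs, and with the GC trend removed IFNL1 was, against 2.29% of all genes higher with both. The median folds of the 33 were 0.13 with siRNA1 and 0.09 with siRNA2. Above scrambled were 19 and 20 of them, against 51.8% and 34.6% of all genes tested. Interferon genes were read at low depth: IFNB1, the type I interferon of epithelial cells, measured 1.53 TPM with siRNA1, 1.26 TPM with siRNA2 and 0.495 TPM with scrambled siRNA, from 5.9, 5.0 and 2.0 estimated reads. IFNL1, a type III interferon that acts mainly on epithelia, measured 5.64 TPM with siRNA1, 8.81 TPM with siRNA2 and 2.48 TPM with scrambled siRNA, from 21.8, 34.7 and 9.9 estimated reads, folds of 0.93 and 1.50, or 1.25 and 1.81 with the GC trend removed. IFNE, a constitutive epithelial interferon, measured 2.68 TPM with siRNA1, 1.32 TPM with siRNA2 and 0.864 TPM with scrambled siRNA, from 17.8, 8.9 and 6.0 reads. These 3 interferon genes were higher than scrambled with both siRNAs, on 34.7 estimated reads or fewer. IFNL2 and IFNL3, near-identical copies whose reads cannot be cleanly split, stayed at 0.894 and 1.12 TPM or under.

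At least 2-fold from scrambled were 1 of the 33 with siRNA1, CCL5, on the lower side, and 9 with siRNA2, of which 4 were higher and 5 lower, beside the 6.88% and 13.2% of all genes given above. The 4 were IFNL1, JAK1, SOCS3 and TRIM25. With the GC trend removed, 5 were higher with siRNA2, the same 4 and TICAM1, the TLR3 adaptor gene, named after its values were seen, and 2 lower, IL10RB and RNF135, against 8.89% and 7.01% of all genes. IFNAR1, a chain of the type I receptor, measured 61.7 TPM with siRNA1, 44.7 TPM with siRNA2 and 43.9 TPM with scrambled siRNA, and its partner IFNAR2 measured 9.90, 5.47 and 9.44 TPM in the same order. Both chains of the type III receptor were 2-fold lower with siRNA2: IFNLR1 measured 3.08 TPM with siRNA1, 1.45 TPM with siRNA2 and 4.23 TPM with scrambled siRNA, and IL10RB measured 37.4, 17.2 and 41.7 TPM. With the GC trend removed their siRNA2 folds were -0.80 (IFNLR1) and -1.09 (IL10RB), so IFNLR1 was then under 2-fold. The interferon-gamma receptor chains had siRNA2 folds above 0, IFNGR1 0.51 and IFNGR2 0.61. JAK1, a kinase of all 3 receptor types, measured 62.6 TPM with siRNA1, 163 TPM with siRNA2 and 65.1 TPM with scrambled siRNA, and SOCS3, a feedback inhibitor of cytokine receptors, 24.7, 65.4 and 29.8 TPM. For these 2 genes siRNA1 lay near scrambled and siRNA2 at over 2-fold above it.

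TRIM25 had the largest siRNA2 fold of the list. This gene, a ubiquitin ligase of RIG-I signalling, measured 97.2 TPM with siRNA1, 392 TPM with siRNA2 and 98.9 TPM with scrambled siRNA, a siRNA2 fold of 1.97. RNF135, or Riplet, another ligase of RIG-I, measured 10.7 TPM with siRNA1, 5.30 TPM with siRNA2 and 16.4 TPM with scrambled siRNA, a siRNA2 fold of -1.47. TRAF3, an adaptor between MAVS and the kinases, measured 20.8 TPM with siRNA1, 15.4 TPM with siRNA2 and 39.0 TPM with scrambled siRNA, with a siRNA2 fold of -1.29, or -0.98 with the GC trend removed. IRF5, a further inducible factor, measured 4.01 TPM with siRNA1, 1.97 TPM with siRNA2 and 5.88 TPM with scrambled siRNA, with a siRNA2 fold of -1.21, or -0.90 with the GC trend removed. CCL5, a chemokine of the response, measured 0.290 TPM with siRNA1, 2.0 TPM with siRNA2 and 1.83 TPM with scrambled siRNA, with an estimated 2.0, 13.9 and 12.9 reads. TRIM25 and RNF135 thus lay on opposite sides of scrambled with siRNA2. None of these folds passed limma's adjusted threshold.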

How the data were processed

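RNA was measured in 3 libraries, 1 for each FOXP4 siRNA and 1 for the scrambled siRNA. The labels' protocols describe capture of poly(A) RNA and NEBNext Ultra library preparation. The authors deposited TPM per gene symbol, on GRCh38 per the submitters' processing notes; the quantifier, its annotation and its use of strand are not given in the sources used here. Of the names in the table, 26 had been turned into dates, none of them a member. No column of other samples was found (0).

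From these values log2(TPM + 1) was computed, with a filter of a mean of at least 1 TPM, and tested with limma (version 3.58.1, R version 4.3.3), using its intensity trend and Benjamini-Hochberg adjustment (threshold 0.05). The 1 residual degree of freedom came from how the siRNA libraries differ, which assumes that the single scrambled library varies as they do. Further steps used Python 3.11.15, pandas 2.3.3 and statsmodels 0.14.6. The GC trend was a lowess curve (fraction 0.3) fitted on nuclear genes of at least 10 TPM, and 85.3% of tested genes had a GC value from GENCODE 29, matched by symbol, from which gene IDs and GRCh38 positions were also taken. Reads were estimated from the steps of TPM times exon length: 92.6%, 93.0% and 92.8% of low values came to whole reads, within 0.1, with siRNA1, siRNA2 and scrambled siRNA. On 2000 bases of exon 1 read was worth 0.111, 0.109 and 0.107 TPM. The scripts were tested on simulated data.

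All members are named; of the other pathway genes, those 2-fold from scrambled with either siRNA, the interferon genes and the receptors. A gene that the full rule also named is not reported here. Members and lists were chosen with earlier results of these data known. Alternatives were other pseudocounts and filters, median-of-ratios scaling, removal of mitochondrial genes or of the GC trend, and leaving out a library.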

Additional observations from a re-analysis of the deposited data

How the results depend on the processing

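Of all genes tested limma called 0 as reported, 93 among genes of at least 10 TPM and 9 without mitochondrial genes, and no member under either. It could not be fitted with a library left out, since no residual degree of freedom remains. Members 2-fold higher with every remaining siRNA numbered 0 as reported and 1 to 4 with either siRNA left out. The median fold of the 5 transcription factors was 0.07 with siRNA1 as reported, -0.29 among genes of at least 10 TPM and 0.22 with the GC trend removed. With siRNA2 it was 0.24 as reported, 0.52 with median-of-ratios scaling and 0.58 with the GC trend removed. Between siRNA2 and siRNA1, members 2-fold higher with siRNA2 numbered 3 as reported, 6 with median-of-ratios scaling and 1 without mitochondrial genes. Members 2-fold lower numbered 7 as reported, 2 with a pseudocount of 5, 4 among genes of at least 10 TPM, 4 with median-of-ratios scaling and 0 with the GC trend removed. The cause of these shifts was not tested. Of the 9129 genes of at least 10 TPM, 929 were 2-fold lower with siRNA2 than with siRNA1. For the pseudocount of 5, median-of-ratios scaling and removal of mitochondrial genes, no such share of all genes was counted. Of the 80 member folds, 16 changed sign with the GC trend removed, 6 with median-of-ratios scaling and 2 without mitochondrial genes, and 0 without a filter on TPM or with a pseudocount of 0.1. No member fold past 2-fold changed sign. The share of all gene folds that changed sign was not counted. No paired analysis was possible because the groups compared share fewer than 2 replicate numbers. Low depth limits the 6 members under the filter, RSAD2 and DHX58. It also limits CMPK2 and IFI44, at an estimated 10.9 and 12.9 reads with siRNA2. Other low members, such as IRF9 (25.8 reads with siRNA2) and MX1 (28.7), rest on few reads too.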
